A study of Drosophila melanogaster with 6 samples.

Results

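The genes described here encode 4 families of cell surface and secreted proteins through which neurons of Drosophila melanogaster recognise each other and their muscles. They were chosen by annotated symbol, as dpr with a number, DIP with a Greek letter, beat with a Roman numeral, and side or side-II to side-VIII. Of 54 such genes in the RefSeq table, 51 had a probe set that named them alone, among 11983 genes measured in all. They were 20 of 21 dpr genes, 10 of 11 DIP genes, 13 of 14 beat genes and 8 of 8 side genes. dpr21, DIP-lambda and beat-Ib were not measured by such a probe set and were not analysed here.

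Dpr and DIP proteins are members of the immunoglobulin superfamily that sit on the cell surface and bind each other in specific pairs. Different neurons carry different Dpr and DIP proteins, and the pairs help neurons choose partners, survive and form synapses at the fly neuromuscular junction and in the visual system. Beat and Side proteins form a second such network. Side is a membrane protein found along the path of motor axons and on muscle, and Beat-Ia, made by motor neurons, binds it, so that axons leave their bundle and enter the muscle field.

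RNA came from whole embryos of stages 11 to 16, kept at 25 °C and put through a COPAS sorter, a flow instrument for large particles. Labelling began at the poly(A) tail, so that broken RNA lowers signal most at probe sets near the 5′ end. 3 samples were Oregon R, a laboratory wild type strain, and 3 were age-matched sage mutants, which lack normal function of a salivary gland transcription factor of the basic helix-loop-helix class. The labels name neither the sage allele nor the strain it was kept in, so strain background and genotype cannot be told apart, and they do not say that replicates were separate collections. In whole embryos, fewer cells of a type and less RNA per cell cannot be told apart.

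Each sample was hybridised to 1 Affymetrix array, and a level is given as log2 signal throughout. sage itself (CG12952, chromosome arm 3R) had a signal between 7.93 and 8.61 on the wild type arrays and between 5.12 and 5.44 on the mutant arrays. The mean difference between 5′ and 3′ probe sets of 5 control pairs, a measure of RNA integrity, was −1.84 ± 0.08 for wild type arrays and −3.68 ± 0.61 for mutant arrays (SD, n = 3 each). These values did not overlap between groups (two-sided exact permutation p = 0.1, the smallest that 3 against 3 allows). The mutant arrays thus had less 5′ control signal relative to 3′, and the part of this in the differences below was not tested. With this control difference as a covariate, limma called none of the 18769 probe sets at an adjusted p under 0.05, sage included, while 1613 had an unadjusted p under 0.05.

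The families were measured at low to moderate signal in wild type embryos. The signal of a probe set depends on its probes as well as on its transcript, so levels of different members are not ranked. As a guide to low signal, 11 larval glue genes, which are made much later in development, had wild type means between 3.76 and 5.79. Of the 51 members, 19 had a wild type mean above 5.79, 8 of them dpr genes, 1 a DIP gene, 6 beat genes and 4 side genes. In the mutants 23 members had a mean above this value. Among all genes, 7948 of 11983 had a wild type mean above it, and 8076 had a mutant mean above it. Differences of the other 32 members rest on signals at which hybridisation from other sequences could weigh, and their folds are not exact.

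The brightest dpr probe set was that of dpr7 on chromosome 4, which gave 9.60, 9.93 and 9.40 in wild type and 9.49, 10.11 and 9.58 in the mutants, here and below in the order of replicates 1 to 3. Its groups overlapped throughout. dpr17 gave 6.98, 6.79 and 7.14 in wild type and 7.01, 7.33 and 7.28 in the mutants, with 1 mutant array inside the wild type range. In the beat family, beat-Ia gave 8.98, 7.90 and 8.49 in wild type and 8.78, 8.13 and 8.28 in the mutants. Its spread of 0.54 (SD, n = 3) in wild type was among the widest of the members, and the groups overlapped. beat-IIIc gave 8.47, 7.96 and 8.47 in wild type and 8.47, 8.15 and 8.68 in the mutants, again with overlap.

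**Figure D1:**
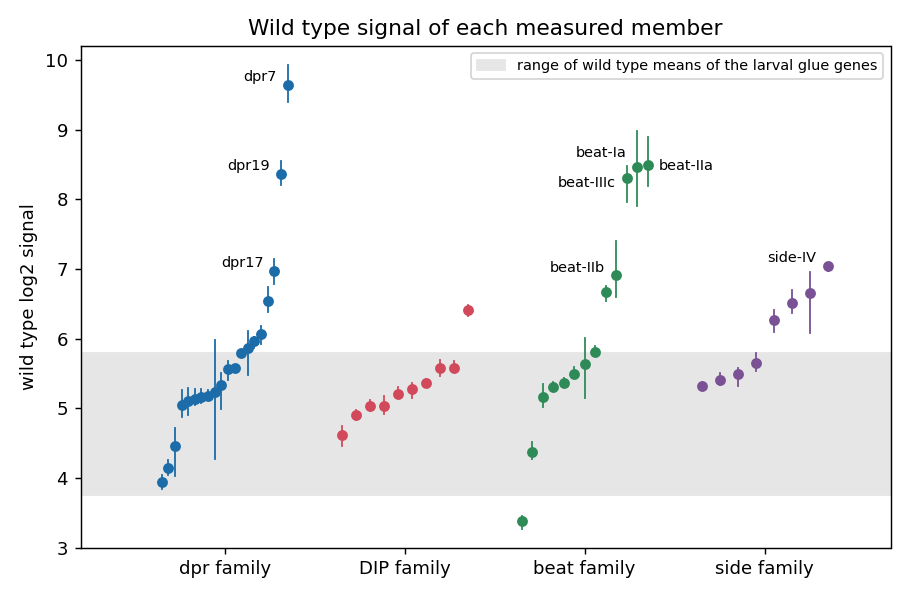
Wild type log2 signal of the 51 measured members, by family. Points are means of 3 arrays, vertical lines run from the lowest to the highest array, and the grey band spans the wild type means of 11 larval glue genes (3.76 to 5.79). 19 members lie above the band, and names are given for members with the brightest probe sets.

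Across the 4 families, 4 members rose and 2 fell in sage mutants at a limma adjusted p under 0.05, which is 11.8% of the 51. dpr5, dpr6, DIP-alpha and beat-Ic rose, while side-IV and side-V fell. Over all genes by the brightest probe set, 4.98% were called, 2.1% lower and 2.88% higher, and over all probe sets 4.03% were called. Those were 363 lower and 394 higher, or 465 lower and 334 higher with arrays centred on their medians. The median difference of the 51 members, mutant minus wild type, was −0.02, beside −0.01 over all genes. The members' differences ran from −0.66 to 0.95, so none reached 2-fold. No member was called by limma when replicate 1 or 3 of wild type, or 2 or 3 of the mutants, was left out, and 17 to 20 then had an unadjusted p under 0.05. Leaving out wild type replicate 2 gave 7 called members, and leaving out mutant replicate 1 gave 6. With replicate number as a block it was 1, dpr5.

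Before adjustment, 17 members were higher and 3 lower at p under 0.05, against 12.1% of all genes higher and 10.3% lower. The 17 were 7 dpr, 5 DIP and 5 beat genes, and no side gene was among them. All 8 side genes had a negative difference. The groups did not overlap for 17 members that were higher and 9 that were lower in the mutants, against 12.9% and 13.4% of all genes. The family medians were 0.16 for dpr, 0.20 for DIP, −0.06 for beat and −0.23 for side. These medians use each member's brightest probe set, and differences between families were not tested. Over every probe set, positive and negative differences numbered 18 and 19 for dpr, 8 and 8 for DIP, 7 and 11 for beat and 2 and 20 for side. The medians were then −0.00023, 0.012, −0.056 and −0.11, so that those of dpr and DIP lay near 0 over all their probe sets.

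**Figure D2:**
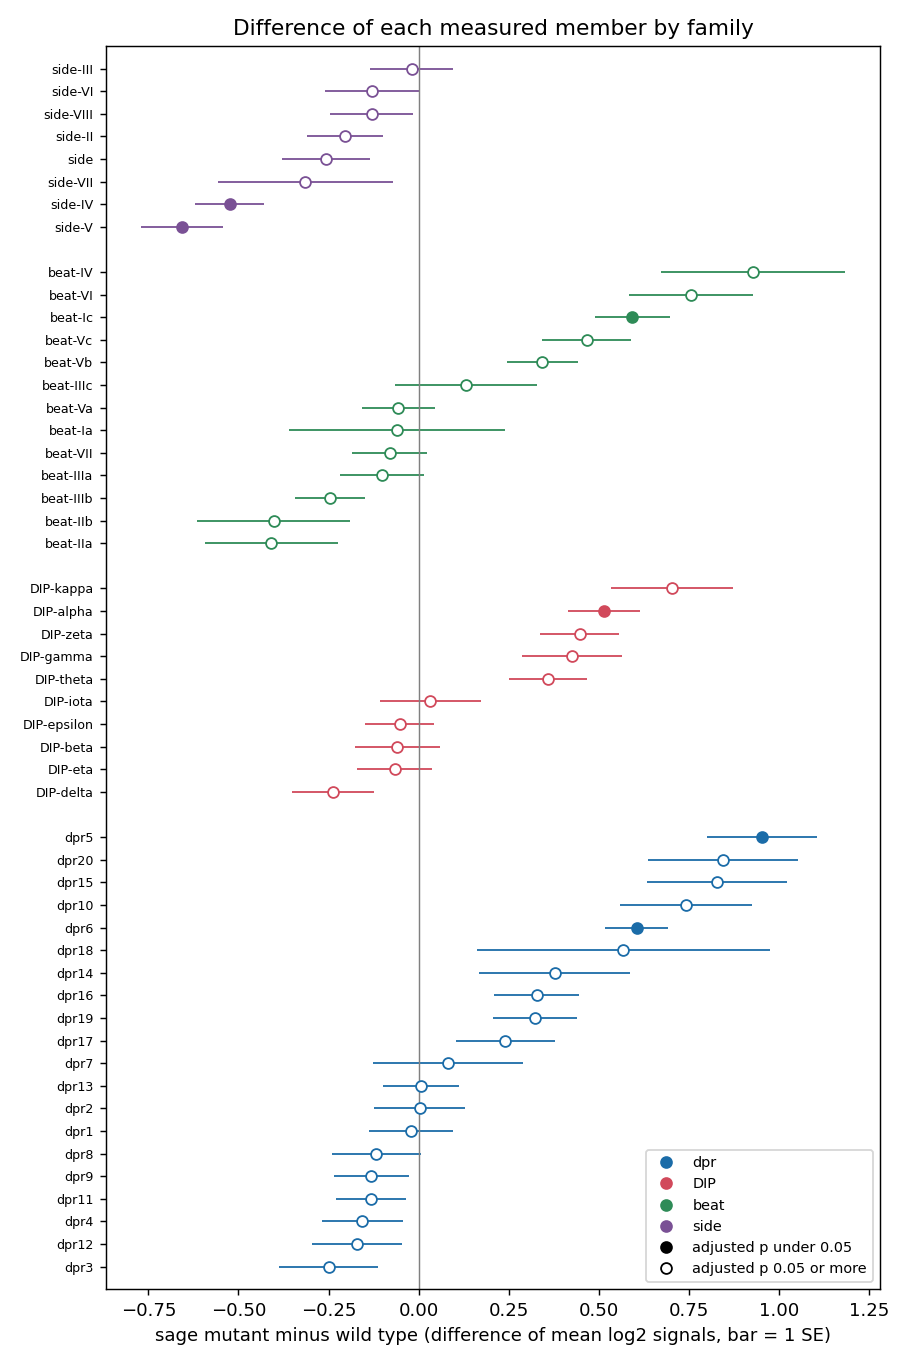
Difference of mean log2 signal, sage mutant minus wild type, for each of the 51 measured members by its brightest probe set (n = 3 arrays per group). Bars are 1 SE from limma, and filled points have an adjusted p under 0.05. dpr5 at 0.95 and side-V at −0.66 are the extremes, and all 8 side genes lie below 0.

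Among the dpr genes, 2 of 20 rose and none fell, and 7 had an unadjusted p under 0.05, all 7 of them higher. dpr5 (CG5308, chromosome arm 3R) gave 6.39, 6.51 and 6.73 in wild type and 7.24, 7.67 and 7.58 in the mutants. Every mutant array lay above every wild type array. The means were 6.54 ± 0.18 and 7.50 ± 0.22 (SD, n = 3 each), a 1.94-fold rise (log2 0.95, SE 0.15, limma adjusted p = 0.0261). With the replicate block, dpr5 still passed (adjusted p = 0.0299). Leaving out replicate 1 or 3 of wild type raised its adjusted p to 0.097 or 0.0519, and leaving out replicate 2 or 3 of the mutants raised it to 0.109 or 0.132. With the control 5′ to 3′ covariate its log2 difference was 1.53 (adjusted p = 0.344).

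dpr6 (CG14162, 3L), a binding partner of DIP-alpha, gave 5.82, 5.77 and 5.81 in wild type and 6.32, 6.45 and 6.44 in the mutants. The spread within each group was small, at 0.03 and 0.07 (SD, n = 3 each), and the groups did not overlap. The wild type mean of 5.80 was barely above the highest glue gene mean of 5.79, and wild type replicate 2 lay below that mean. dpr6 rose 1.52-fold (log2 0.60, SE 0.09, limma adjusted p = 0.0211). With the replicate block its adjusted p was 0.0511. Leaving out replicate 1 or 3 of wild type gave 0.0856 or 0.0679, and leaving out replicate 2 or 3 of the mutants gave 0.0907 or 0.108.

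A further 5 dpr genes were higher in every mutant array without passing the adjusted threshold. dpr10 (CG32057, 3L), the other partner of DIP-alpha, gave 6.02, 5.48 and 6.11 in wild type and 6.54, 6.53 and 6.76 in the mutants. Its difference was 0.74 (SE 0.18, adjusted p = 0.084), and without wild type replicate 2, the lowest array, it was 0.55 with an adjusted p of 0.0495. dpr15 gave 4.63, 4.03 and 4.72 in wild type and 5.18, 5.31 and 5.38 in the mutants. All of these values lie in the low range of the glue genes, and the difference was 0.83 (SE 0.19, adjusted p = 0.0747), or 0.61 (adjusted p = 0.0323) without wild type replicate 2. dpr20 gave 5.50, 4.99 and 5.50 in wild type and 5.82, 6.33 and 6.37 in the mutants, a difference of 0.84 (SE 0.21, adjusted p = 0.0848). Without mutant replicate 1, the lowest mutant array of dpr20, the difference was 1.02 (adjusted p = 0.0456). Leaving out the lowest mutant array of a higher gene widens its difference by construction. dpr10, dpr15 and dpr20 were not called when any other single array was left out. dpr19 gave 8.35, 8.55 and 8.20 in wild type and 8.71, 8.73 and 8.63 in the mutants, a difference of 0.32 at a signal well above the glue genes (adjusted p = 0.203). dpr16 gave 3.84, 4.04 and 3.94 in wild type and 4.20, 4.45 and 4.14 in the mutants (difference 0.33, adjusted p = 0.202).

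The remaining 13 dpr genes had unadjusted p-values of 0.05 or more. dpr18 had the widest wild type spread of all members, 0.88 (SD, n = 3), because wild type replicate 2 gave 4.27 against 5.46 and 5.97 in replicates 1 and 3, and its difference was 0.57 (SE 0.41). dpr14 and dpr17 had differences of 0.38 and 0.24, and dpr7 0.08. dpr13, dpr2 and dpr1, the last named for a gustatory response in which flies extend the proboscis, had 0.01, 0.0023 and −0.02. dpr8, dpr9, dpr11, dpr4, dpr12 and dpr3 had −0.12, −0.13, −0.13, −0.16, −0.17 and −0.25. dpr3 was the 1 dpr gene lower in every mutant array, with 5.57, 5.55 and 5.61 in wild type and 5.46, 5.47 and 5.05 in the mutants.

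Among the DIP genes, 1 of 10 rose and none fell, and 5 had an unadjusted p under 0.05, all 5 of them higher. DIP-alpha (CG32791, X), a receptor of identified motor neurons, gave 5.31, 5.15 and 5.17 in wild type and 5.70, 5.82 and 5.64 in the mutants. The groups did not overlap, but all wild type values and 2 of the 3 mutant values lie in the low range of the glue genes. DIP-alpha rose 1.43-fold (log2 0.51, SE 0.10, limma adjusted p = 0.0451). Its adjusted p was 0.0769 with the replicate block and 0.0732 with arrays centred on their medians. Leaving out any single array ended the call, with adjusted p-values from 0.0606 (wild type replicate 2) to 0.163 (mutant replicate 2).

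DIP-kappa gave 4.64, 4.47 and 4.75 in wild type and 4.9993, 5.58 and 5.38 in the mutants, a difference of 0.70 (SE 0.17, adjusted p = 0.0809). Without mutant replicate 1, its lowest mutant array, it was 0.86 (adjusted p = 0.0311), and leaving out any other single array gave no call of DIP-kappa. DIP-zeta gave 4.89, 4.83 and 4.98 in wild type and 5.21, 5.33 and 5.49 in the mutants, a difference of 0.45 (adjusted p = 0.084). Both were higher in every mutant array, and both lie wholly in the low range. DIP-gamma, a partner of Dpr11 and the 1 DIP gene with a wild type mean above the glue genes, gave 6.43, 6.32 and 6.48 in wild type and 6.57, 7.04 and 6.90 in the mutants (difference 0.43, adjusted p = 0.169). DIP-theta gave 5.58, 5.46 and 5.69 in wild type and 5.82, 6.04 and 5.95 in the mutants (difference 0.36, adjusted p = 0.143). These groups did not overlap either. DIP-delta, the partner of Dpr12, ran the other way, with 5.51, 5.67 and 5.54 in wild type and 5.32, 5.50 and 5.19 in the mutants (difference −0.24, adjusted p = 0.332). DIP-iota, DIP-epsilon, DIP-beta and DIP-eta had differences of 0.03, −0.05, −0.06 and −0.07.

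In the beat family, 1 of 13 rose and none fell, and 5 were higher and 1 lower at an unadjusted p under 0.05. beat-Ic (CG4838, 2L) gave 3.42, 3.26 and 3.46 in wild type and 3.87, 3.96 and 4.08 in the mutants. It rose 1.51-fold (log2 0.59, SE 0.10, limma adjusted p = 0.0341) with no overlap between groups. Its wild type mean of 3.38 was below that of every glue gene, so neither the fold nor expression of the gene can be read from it. Its adjusted p was 0.0566 with the replicate block and 0.0534 after quantile normalization. Leaving out replicate 1 or 3 of wild type gave 0.113 or 0.0785, and leaving out replicate 2 or 3 of the mutants gave 0.13 or 0.144.

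At higher signal, beat-VI gave 6.75, 6.73 and 6.53 in wild type and 7.08, 7.53 and 7.67 in the mutants. Every mutant array was above wild type, and the difference was 0.75 (SE 0.17, adjusted p = 0.069). Without mutant replicate 1, its lowest mutant array, it was 0.93 (adjusted p = 0.0213), and leaving out any other single array gave no call of beat-VI. beat-IV gave 5.75, 5.14 and 6.01 in wild type and 6.31, 6.46 and 6.89 in the mutants (difference 0.93, SE 0.25, adjusted p = 0.111). beat-Vb gave 5.78, 5.76 and 5.90 against 6.11, 6.27 and 6.09, and beat-Vc gave 5.13, 5.02 and 5.35 against 5.49, 5.68 and 5.72. Their differences were 0.34 and 0.47 (adjusted p = 0.123 and 0.103), without overlap between groups. All values of beat-Vc lie in the low range of the glue genes. The wild type mean of beat-IV, 5.63, lies in that range too, and that of beat-Vb, 5.81, lies just above it.

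beat-IIa and beat-IIb were lower in every mutant array, and neither passed the threshold. beat-IIa gave 8.41, 8.90 and 8.19 in wild type and 8.14, 8.05 and 8.07 in the mutants. beat-IIb gave 6.74, 7.40 and 6.59 in wild type and 6.55, 6.40 and 6.57 in the mutants. The means of beat-IIb were 6.91 ± 0.43 and 6.51 ± 0.09 (SD, n = 3 each). The differences of beat-IIa and beat-IIb were −0.41 (SE 0.18) and −0.40 (SE 0.21), with adjusted p-values of 0.304 and 0.388. beat-IIIb gave 5.43, 5.60 and 5.45 in wild type and 5.31, 5.26 and 5.17 in the mutants (difference −0.25, adjusted p = 0.239). beat-Ia, which lets motor axons leave their bundle, had a difference of −0.06 (SE 0.30), so a change of either sign within its spread could not be seen here. beat-IIIc, beat-Va, beat-VII and beat-IIIa had 0.13, −0.06, −0.08 and −0.10.

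In the side family, 2 of 8 fell and none rose, and these were the 2 with an unadjusted p under 0.05. side-V (CG34371, 2R) gave 6.41, 6.09 and 6.28 in wild type and 5.55, 5.60 and 5.67 in the mutants. side-IV (CG14372, 3R), a receptor for Beat-IIa and Beat-IIb, gave 6.98, 7.07 and 7.07 in wild type and 6.55, 6.41 and 6.60 in the mutants. Neither gene's groups overlapped, and both wild type means lay above the glue genes. Every mutant value of side-V lies in the low range of the glue genes, so its fold is not exact. side-V fell 1.58-fold (log2 −0.66, SE 0.11, limma adjusted p = 0.0309), and side-IV fell 1.44-fold (log2 −0.52, SE 0.10, limma adjusted p = 0.0379). With the replicate block their adjusted p-values were 0.0597 and 0.0694. Leaving out any single array other than wild type replicate 2 ended the call of side-V, with adjusted p-values from 0.0654 (mutant replicate 1) to 0.129 (mutant replicate 2). For side-IV every single array did so, from 0.0504 (wild type replicate 2) to 0.136 (mutant replicate 2).

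side, the founding member and the binding partner of Beat-Ia, gave 6.45, 6.69 and 6.37 in wild type and 6.25, 6.14 and 6.36 in the mutants (difference −0.26, SE 0.12, adjusted p = 0.33). Its highest mutant array lay just below its lowest wild type array. side-VII gave 6.95, 6.09 and 6.92 in wild type and 6.33, 6.22 and 6.46 in the mutants. Its groups overlapped only through wild type replicate 2, and the difference was −0.31 (adjusted p = 0.579). Without that array, its lowest, the difference was −0.60 (adjusted p = 0.0365), and leaving out any other single array gave no call of side-VII. side-II, side-VIII, side-VI and side-III had differences of −0.20, −0.13, −0.13 and −0.02. Over all 4 families, 58 of 93 probe sets had a negative difference.

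**Figure D3:**
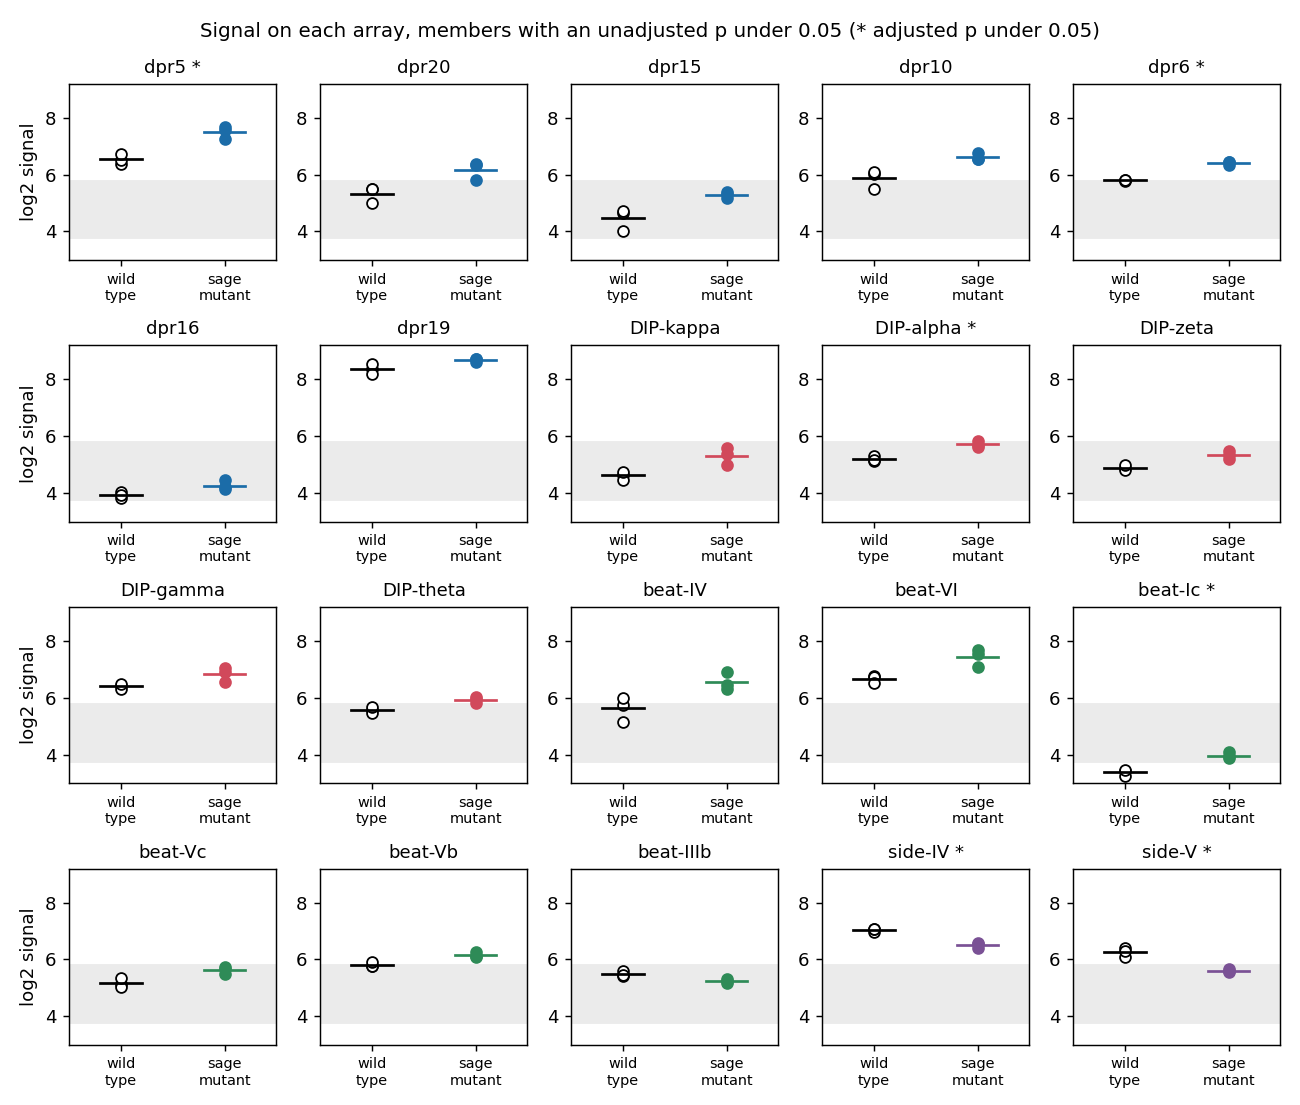
Log2 signal on each of the 6 arrays for the 20 members with an unadjusted p under 0.05. Open points are wild type and filled points sage mutant arrays, short lines are group means (n = 3), and the grey band spans the glue genes' wild type means (3.76 to 5.79). Members marked with a star have an adjusted p under 0.05, and DIP-alpha and beat-Ic lie low while side-IV lies above the band.

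Proteins that bind each other were set side by side by their differences, without a test. The pairs are not a full list of known partners. dpr6 and dpr10 had 0.60 and 0.74, and their partner DIP-alpha had 0.51, so that all 3 were higher in every mutant array. DIP-beta, which also binds Dpr6 and Dpr10, had −0.06. beat-IIa and beat-IIb had −0.41 and −0.40, and their partner side-IV had −0.52, so that all 3 were lower in every mutant array. Among all genes, 12.9% were higher and 13.4% lower in every mutant array. Wild type replicate 2 was the lowest array for dpr6, dpr10 and DIP-alpha. That array was also the highest for beat-IIa, beat-IIb and, narrowly, side-IV. dpr12 and its partner DIP-delta had −0.17 and −0.24. beat-Ia and side had −0.06 and −0.26. DIP-gamma had 0.43, and of its partners dpr11 had −0.13 while dpr15, dpr16 and dpr17 had 0.83, 0.33 and 0.24. DIP-beta and these last 3 partners were added after their values were seen. beat-VI had 0.75 while its partner side-II had −0.20. beat-Va, beat-Vb and beat-Vc had −0.06, 0.34 and 0.47, beside −0.13 for their partner side-VI.

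For 23 members several probe sets named the gene, and these gave 42 further measurements. None of the 42 passed limma's adjusted threshold, and 2 had an unadjusted p under 0.05. Those 2 belonged to dpr8, whose brightest probe set had a difference of −0.12 while its dimmer ones had 0.66 and 0.61 (adjusted p = 0.135 and 0.231). The first of them gave 4.83, 4.17 and 4.74 in wild type and 5.07, 5.23 and 5.42 in the mutants, and its groups did not overlap. The 3 probe sets of dpr6 had 0.60, 0.23 and −0.10, the 2 of beat-VI 0.75 and −0.06, the 2 of side-V −0.66 and −0.11, and the 2 of side-IV −0.52 and −0.18. With a gene's probe sets averaged, dpr6, side-V and side-IV had 0.25, −0.38 and −0.35 and did not pass (adjusted p = 0.241, 0.116 and 0.109), and 2 members did, dpr5 and beat-Ic. The probe sets of 12 of the 23 members differed in sign, with a median spread of 0.20 within a member. Where each probe set lies along its transcript was not analysed here.

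**Figure D4:**
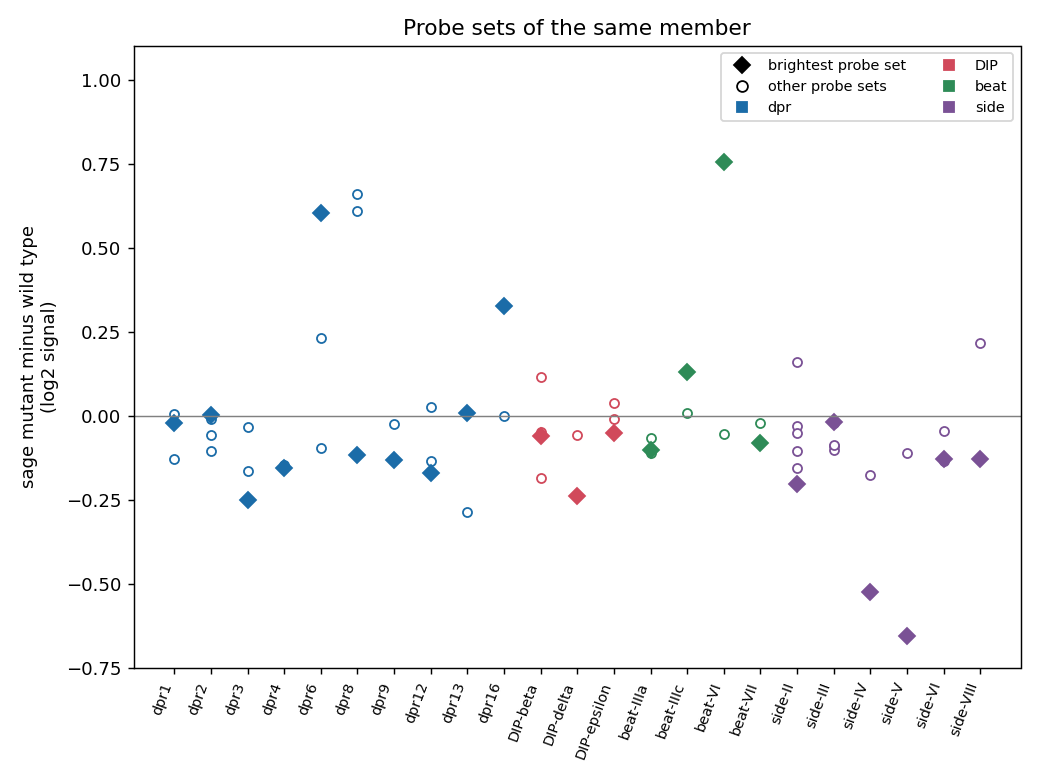
Difference of mean log2 signal, sage mutant minus wild type, for each probe set of the 23 members that had several. Diamonds are the brightest probe set of a member, open circles its other probe sets, and colours give the family. Probe sets lie farthest apart for beat-VI, dpr8, dpr6 and side-V. The median spread within a member is 0.20, and the probe sets of 12 members differ in sign.

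Members were spread over the genome, with 21 of the 51 on chromosome arm 3R, 15 on 2L, 5 each on 2R and X, 4 on 3L and 1 on chromosome 4. Several lie close together in the RefSeq gene order, and close genes may share probe matches, which was not examined here. dpr5 and dpr4 are direct neighbours among protein-coding genes, with differences of 0.95 and −0.16. dpr6 and dpr10 have 5 protein-coding genes between them, and both were higher. beat-IIa and beat-IIb have 4 between them, and both were lower. dpr17 and dpr15, with 1 gene between them, had 0.24 and 0.83, and DIP-eta and DIP-theta, also with 1 between, had −0.07 and 0.36. beat-Vc and beat-Va, with 1 between, had 0.47 and −0.06, and beat-Vb, 3 genes beyond beat-Va, had 0.34. beat-Ic and beat-Ia, with 6 between, had 0.59 and −0.06. beat-IIIb, beat-IIIa and beat-IIIc, in this order with 7 and 5 between, had −0.25, −0.10 and 0.13. Close members thus shared a sign in some pairs and differed in others.

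Wild type replicate 2 stood apart from the other arrays, with a mean correlation of 0.977 to its own group against 0.985 and 0.986. It was the lowest of the 6 arrays for 18 of the 51 members and the highest for 16, more often in each direction than any other array. Of the called members, dpr6, DIP-alpha and beat-Ic were among the 18 and side-IV among the 16. dpr10, dpr15, dpr18, dpr20 and beat-IV were also among the 18, and beat-IIa, beat-IIb and side among the 16. Neuron markers were low on the same array, with a median signal of 6.92 against 7.66 and 7.67 on the other wild type arrays. Muscle markers were low there too, with a median of 11.16 against 11.48 and 11.62. Not every neuron marker followed, as nSyb and Rbp9 had their highest wild type signal on this array, and elav was lowest on wild type replicate 3.

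Other genes of the nervous system were described by the same values. Among all genes, 4.98% passed limma's adjusted threshold, and 12.1% were higher and 10.3% lower at an unadjusted p under 0.05. Of 15 measured neuron markers, none passed limma and 3 had an unadjusted p under 0.05. Their median difference was 0.09, and the log2 of their summed signal ran from 12.60 to 13.38 in wild type and from 12.80 to 13.22 in the mutants. elav, an RNA-binding protein of all neurons, ranged from 8.84 to 10.83 in wild type and from 10.44 to 11.15 in the mutants. The summed neuron signal thus overlapped between the groups. Of 9 measured glia markers, 5 had a negative and 4 a positive difference. nrv2, a sodium pump subunit, fell 3.15-fold (limma adjusted p = 0.0036). repo, the transcription factor of glia, had −0.94 (adjusted p = 0.0521). Gs2 was higher in every mutant array, with 0.61 (adjusted p = 0.15). Bright genes such as nrv2 weigh most in the summed glia signal. This sum was 12.87 to 13.06 in wild type and 12.44 to 12.77 in the mutants, without overlap. Its part in the lower side genes was not tested.

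Muscle, where the targets of motor axons lie, was represented by 7 measured markers, of which Mp20 rose 2.30-fold (limma adjusted p = 0.0371). Leaving out replicate 1 or 3 of wild type raised the adjusted p of Mp20 to 0.127 or 0.0866, and leaving out replicate 2 or 3 of the mutants raised it to 0.143 or 0.163. The median difference of the muscle markers was 0.38, and their summed signal was 14.29 to 14.94 in wild type and 14.83 to 15.20 in the mutants. The genes listed as motor neuron transcription factors were eve, ftz-f1, Lim3, tup, zfh1, vvl and exex. In whole embryos their signal cannot be assigned to motor neurons alone. This list had no called member among 7 by limma, none at an unadjusted p under 0.05, and a median of −0.13. Neuroblast and ganglion mother cell markers had none among 10, with 1 at an unadjusted p under 0.05 and a median of −0.24. Of 41 other neuronal recognition and guidance genes, 2 fell and none rose, with 5 lower and 5 higher at an unadjusted p under 0.05. The called share of this list was 4.88%, close to the 4.98% of all genes. At that unadjusted p, 10.3% of all genes were lower and 12.1% higher. Nrt, an adhesion protein, fell from 9.83 ± 0.38 to 8.76 ± 0.23 (SD, n = 3 each, limma adjusted p = 0.0498). Toll-7 fell from 6.27 ± 0.03 to 5.67 ± 0.14 (SD, n = 3 each, limma adjusted p = 0.0335). With the replicate block neither passed, at adjusted p = 0.0713 for Nrt and 0.0657 for Toll-7. Nrt kept its call without wild type replicate 3 and lost it without any other single array (adjusted p up to 0.195 without mutant replicate 3). Toll-7 kept its call without wild type replicate 2 and lost it without any other (up to 0.147 without mutant replicate 3). Nrt also missed the threshold after quantile normalization (adjusted p = 0.0506). The median of this list was −0.05.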

How the data were processed

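The authors deposited log2 signals, 1 for each probe set on each array. RMA and Partek are the tools named, per the submitters' processing notes, and their versions are not given in the sources used here. By default RMA subtracts background, applies quantile normalization and gives log2 values, and the scale was taken from this and the range of values. Such values shrink differences at low signal. Of 18952 rows, 183 control probe sets were kept out and 18769 tested between groups with limma 3.58.1 (R 4.3.3), using lmFit and eBayes without covariates, and p-values were adjusted by Benjamini-Hochberg over all 18769. 13647 probe sets named 1 gene in the platform annotation, 402 several and 4720 none. Symbols were updated by gene ID from RefSeq (assembly Release 6 plus ISO1 MT). A gene was represented by its probe set with the highest mean over 6 arrays. Steps were tested on simulated data.

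The members, gene lists and binding pairs were chosen with earlier results of these data known. Array signals were given for members with an unadjusted p under 0.05 and for the 3 with the highest wild type mean per family, and every other member is named with its difference. beat-IIb, dpr3, dpr8 and dpr18 were given in more detail after their values were seen. Since separate collections are not stated, the spread behind each p-value may be technical.

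Replicate numbers were read from sample titles. Arrays' deviations from their group mean correlated at 0.17, 0.28 and 0.31 between arrays of the same number, and at −0.30 to 0.14 between arrays of different number. These values are not independent, since deviations cancel within a group. The numbers were taken to pair the arrays, and a blocked fit was run beside the unpaired one. Alternatives were filters on dim probe sets, quantile normalization, median centring, array weights, trend and robust variance, 1 probe set or their mean per gene, the control 5′ to 3′ covariate, and leaving out each array.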

Additional observations from a re-analysis of the deposited data

How the results depend on the processing

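With 3 arrays per group and many signals near those of the glue genes, calls of members moved with the processing. The number of called members was 6 in the fit reported above, 3 with probe sets under a mean of 5 left out, 1 among the probe sets above the median brightness, 19 with array weights, 1 with the replicate block, 2 with a gene's probe sets averaged, and 0 with the control 5′ minus 3′ covariate alone or with the block. It ran from 0 to 7 when each array was left out in turn, and members with an unadjusted p under 0.05 then numbered 17 to 20. With the covariate 9 members had an unadjusted p under 0.05, and 2 with the covariate and the block. Over all probe sets limma called 2737 with array weights, 0 with the covariate alone or with the block (649 at an unadjusted p under 0.05 with both), and 134 to 1111 when an array was left out. The covariate leaves few residual degrees of freedom and differs between the groups without overlap. With trend and robust variance DIP-kappa, DIP-zeta, dpr15 and dpr20 also passed, and side-IV did not. dpr5 kept its call under 11 of 17 alternatives. With members restricted to those with a wild type or a mutant mean above the glue genes, chosen after seeing the data, 4 of 24 were called. A member can pass this filter through its mutant mean alone. By the wild type mean alone, 4 of 19 members were called, beside 5.57% of all genes kept by that filter. Both filters use the values that are compared, so neither count is a test.

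The dpr median was 0.0933 after centring, 0.0820 with dim probe sets left out at 5, 0.32 above the median brightness, 0.33 with the covariate and 0.11 to 0.26 without single arrays. The DIP median was 0.13 after centring, 0.0322 with dim probe sets left out at 5, 0.43 above the median brightness, which held 1 DIP gene, 0.39 with the covariate and 0.48 with covariate and block. The beat median was −0.12 after centring, −0.0289 after quantile normalization, −0.0164 with array weights, 0.13 above the median brightness and −0.0794 to 0.20 without single arrays. The side median was −0.29 after quantile normalization, −0.30 after centring, −0.31 above the median brightness, −0.18 with averaged probe sets, −0.18 with the covariate, −0.14 with covariate and block, and −0.25 to −0.16 without single arrays. The median of all members was −0.0878 after centring, 0.19 above the median brightness, 0.11 with the covariate and 0.10 with covariate and block.

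Reversals of sign were found only for uncalled members. They were dpr1 (0.0040) and dpr13 (−0.0596) after quantile normalization, DIP-iota (−0.0356), dpr13 (−0.0611) and dpr2 (−0.0655) after centring, and DIP-iota (−0.0217), dpr1 (0.0391) and side-III (0.0274) with array weights. With averaged probe sets they were dpr13 (−0.14), dpr2 (−0.0424), dpr8 (0.38) and side-VIII (0.0436). With the covariate they were DIP-eta (0.32), dpr1 (0.39), dpr2 (−0.11), side-III (0.36) and side-VIII (0.0058). With covariate and block they were beat-Ia (0.0029), DIP-eta (0.50), dpr1 (0.31), dpr11 (0.10), dpr13 (−0.27), dpr18 (−0.0209), dpr2 (−0.0282), side-III (0.27) and side-VII (0.0727). Without single arrays the sign turned for beat-Ia (−0.34 to 0.20), beat-IIIc (−0.0403 to 0.27), beat-Va (−0.10 to 0.0162), DIP-beta (−0.12 to 0.0168), DIP-eta (−0.12 to 0.0051), DIP-iota (−0.10 to 0.11), dpr1 (−0.0785 to 0.0577), dpr2 (−0.0867 to 0.11), dpr7 (−0.11 to 0.22), dpr13 (−0.0595 to 0.0545) and side-III (−0.11 to 0.0422). The causes were not tested.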
